A study of Glycine max with 13 samples.

Results

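The sites bound by ARF7 alone are positions in the soybean genome at which the deposited peak list of maize ARF7 had an event and none of 11 other maize ARF lists did. Events of all 12 lists were pooled, and events on one chromosome were chained into a site wherever neighbouring positions lay within 100 bp. This gave 71895 sites, of which 20316 held an ARF7 event. At 6571 of these every event came from ARF7 (32.3% of the ARF7 sites, Wilson 95% interval 31.7% to 33.0%), and the other 13745 were shared with at least 1 other ARF. Over the whole series 47.8% of the merged sites held events of a single ARF, a share that counts each site once and is not on the same base as that of 1 list. List by list, the share of sites held alone was 38.3% for ARF34, 24.3% for ARF4 and 20.3% for ARF36, and ARF7 had the second highest of the 12. The sites were chosen by the deposited peak positions themselves, so these counts describe the choice and are not a test of it.

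The plant hormone auxin acts on transcription through auxin response factors (ARFs), a family of DNA-binding proteins. They bind short auxin response elements, often as dimers on paired elements, and maize carries a large family of them. ARF7 belongs to clade B, whose members are generally described as repressors, whereas clade A members are generally described as activators. The clades come from the published maize phylogeny, are not in the sample labels and were not checked here against protein sequences.

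The assay was DAP-seq, short for DNA affinity purification sequencing. A tagged protein is made in vitro, mixed with sheared DNA free of chromatin, and pulled down, and the DNA that comes with it is sequenced. The DNA was extracted from soybean (Glycine max) leaf and was the same kind of input for all 12 proteins, so no chromatin and no soybean ARF took part. Besides ARF7, the other clade B proteins were ARF10, ARF14, ARF25, ARF36 and ARF39, and the clade A proteins were ARF4, ARF16, ARF18, ARF27, ARF29 and ARF34. A library of the GST-HALO tag without an ARF was also made and was not analysed here. Each protein had 1 library, so no value has a replicate check, no p-value is given, and the intervals cover counting error only. Read depth is unknown: a site without another ARF is one where that protein's list had no event, and binding too weak to be listed cannot be told apart from none. List lengths ran from 1106 events for ARF18 to 35715 for ARF34, with 20802 for ARF7.

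ARF7-alone sites were on the whole weak sites of the ARF7 list. Strength is the value the authors gave each event, and a site was given that of its strongest ARF7 event. The median strength was 30 at ARF7-alone sites (lowest 18, upper quartile 40, highest 365.6) and 42 at shared ARF7 sites (lowest 18, upper quartile 67, highest 8743.1). As a percentile of the ARF7 list, the median was 33.9 at ARF7-alone sites and 59.4 at shared sites. Both groups covered nearly the whole range of ranks and overlapped widely, and the median was lower at ARF7-alone sites on 20 of 20 chromosomes. The highest deposited −log10 q among the ARF7 events of a site had a median of 6.85 at ARF7-alone sites and 9.98 at shared sites.

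The ARF7-alone share was lower in the stronger part of the list, with 1 step out of order. In the weakest decile of the list, with strengths of 18 to 21, 1130 of 2167 sites were ARF7-alone (52.1%, Wilson 95% interval 50.04% to 54.2%). In the sixth decile the share was 33.1%, and in the strongest, with strengths of 90.6 or more, it was 5.87% (120 of 2044 sites, 4.93% to 6.98%). The step out of order was between the third decile (41.8%) and the fourth (42.0%), whose intervals overlap. Of the 1000 strongest ARF7 sites 38 were ARF7-alone, and of the 100 strongest 3 were.

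**Figure D1:**
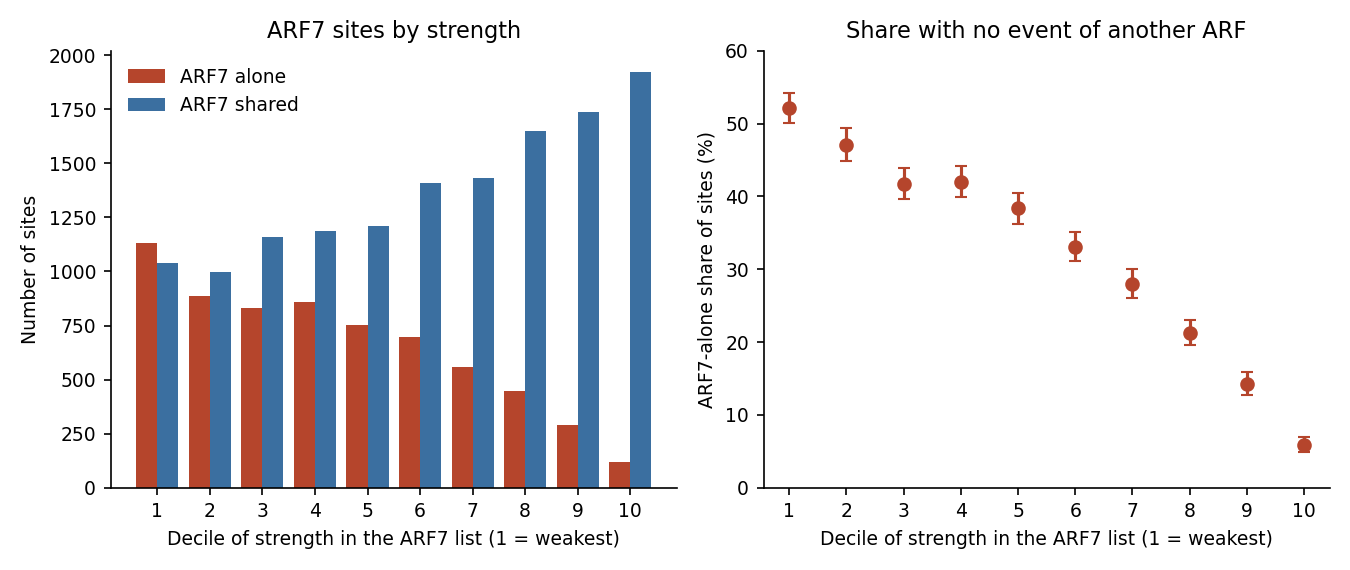
ARF7 sites by decile of their strength within the ARF7 list. Left, number of ARF7-alone and shared sites; right, the ARF7-alone share in percent with Wilson 95% intervals, 52.1% in decile 1 and 5.87% in decile 10.

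ARF7 strength was higher the more ARFs a site held, up to sites of 6 ARFs. The median percentile in the ARF7 list was 33.9 at ARF7-alone sites, 41.6 at sites of ARF7 and 1 other ARF, 50.5 at sites of 3 ARFs and 71.8 at sites of 6. It was 70.2 at sites of 7 and 68.1 at sites of 8, then 91.2 at sites of all 12. ARF7-alone sites therefore stood at the low end of this order, nearest to the sites of ARF7 and 1 partner. The order pools the partners and did not hold for each of them. With 1 partner, the median was 59.0 for ARF14, 44.0 for ARF36, 39.0 for ARF25 and 38.4 for ARF10. It was below that of ARF7-alone sites for ARF34 (31.0), ARF4 (32.6) and ARF27 (28.9). The same held for ARF39, ARF16 and ARF29, from 8, 9 and 7 sites.

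Those partnered sites were mostly pairs with ARF36. Of the 3079 sites of ARF7 and 1 other ARF, 1866 (60.6%) were shared with ARF36, 555 with ARF25, 212 with ARF14 and 165 with ARF34. Clade B proteins were the partner at 2749 (89.3%, Wilson 95% interval 88.1% to 90.3%) and clade A proteins at 330 (10.7%), although ARF34 of clade A has the longest list. Leaving out the ARF36 list accordingly raised the number of ARF7-alone sites to 8482, more than leaving out any other list. At the pairs with ARF14 the median percentile was 59.0 in the ARF7 list and 21.3 in the ARF14 list, whereas at the pairs with ARF36 it was 44.0 in the ARF7 list and 35.6 in the ARF36 list. Over all 13745 shared ARF7 sites, ARF36, ARF25 and ARF14 again came first, in the same order. ARF10, the partner at 108 pairs, there came before ARF34. ARF36 was present at 83.1% of the shared sites, ARF25 at 65.3%, ARF14 at 51.6%, ARF10 at 46.0% and ARF34 at 30.2%.

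The 10 strongest ARF7-alone sites included a cluster of 3 on chromosome 12, sites far from any other list, and sites just beyond the merging distance. Positions are 1-based, on chromosomes as numbered in the deposited lists. The sources used here name no genome build for them, and nearby genes were therefore not looked up. The strongest was at 24045347 of chromosome 12, with a strength of 365.6, rank 32 of all ARF7 sites and −log10 q of 61.9. The next, at 24044102 of chromosome 12, had a strength of 304 and −log10 q of 30.5, and the one ranked 10 among the ARF7-alone sites, at 24045566, had 190.4 and 12.5. These 3 thus lay in a single short stretch, 219 and 1245 bp from their nearest ARF7 neighbours in that stretch. Events of ARF34 (strength 465.7), ARF16 (224.5) and ARF10 (188.2) lay 1448, 1454 and 2832 bp from the strongest one, so the stretch also held strong events of other lists. The ARF34 and ARF16 events were 203 and 209 bp from the ARF7-alone site at 24044102.

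The 3 events of that stretch had weak p-values for their strength. At each event the deposited −log10 p can be set against that of a binomial test at even odds in which no read opposes the strength. It was 58.6% of that value at the strongest site, 35.2% at the next and 23.5% at the weakest of the 3. Among all 6603 ARF7 events at ARF7-alone sites, 31 (0.47%) had less than 50% of that value, against 60 of 14195 readable events at shared sites (0.42%). Of the whole-number strengths, 56.8% of events at ARF7-alone sites and 57.3% at shared sites had that value itself within 0.01, and the Wilson 95% intervals overlap (55.4% to 58.2% and 56.3% to 58.2%). For the share under 50% the intervals also overlap (0.33% to 0.67% at ARF7-alone sites and 0.33% to 0.54% at shared sites). What makes the p-value of an event low for its strength was not tested.

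The other 7 of the 10 strongest were single sites on 6 chromosomes. The site at 24152655 of chromosome 10 had a strength of 253 and −log10 q of 65.0, the highest −log10 q of any ARF7-alone site, and its nearest event of another list, of ARF4, was 10269 bp away. The site at 15933641 of chromosome 4 (strength 223, −log10 q 47.9) had its nearest neighbour, of ARF34, at 19346 bp. At 53421729 of chromosome 1 (209, 52.5) the nearest was ARF36 at 10848 bp. These strong sites stood well apart from any other list, and so did the one at 15347986 of chromosome 8 (193, 48.0), with ARF36 at 18542 bp.

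Besides the site at 24044102 of chromosome 12, another pair of the strongest sites stood close to events of other lists. The site at 6690287 of chromosome 16 (199, 57.4) had an ARF25 event at 128 bp and an ARF14 event at 190 bp. At 4181374 of chromosome 7 (218, 63.0), ARF25, ARF34 and ARF16 events lay at 245, 257 and 272 bp. The last, at 36066326 of chromosome 16 (196, 51.4), had an ARF34 event at 3392 bp.

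The distance to the nearest event of another ARF outside the site differed little between ARF7-alone and shared ARF7 sites. It had a median of 4340 bp at ARF7-alone sites (10th percentile 373 bp, 90th 18545 bp). At shared ARF7 sites the nearest event outside the site itself lay at a median of 4024 bp (399 bp and 16345 bp). An event of another list within 500 bp and outside the site itself was present at 811 ARF7-alone sites (12.3%, Wilson 95% interval 11.6% to 13.2%). The same held at 12.1% of shared sites (11.6% to 12.7%), and the intervals overlap. The groups are not measured quite alike. Distances ran from the ARF7 events, and at a shared site the events of other lists in its chain were left out. Part of the nearest range is therefore empty by rule at shared sites, and its effect was not tested. The nearest event was over 5000 bp away at 3036 ARF7-alone sites and over 50000 bp away at 33.

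Sites close to the threshold were few. The nearest event of another list lay within 150 bp at 263 ARF7-alone sites, 151 to 200 bp away at 112 and 451 to 500 bp away at 49. Just outside the threshold, no more than 5 bp beyond it, were 34 sites with a median percentile of 29.5, and just inside, in the last 5 bp before it, 30 shared sites with a median of 37.7. The strongest of the 34 was at 41271134 of chromosome 5, with a strength of 121.7 and an ARF4 event as its nearest. The strongest of the 30 was at 15529613 of chromosome 10, with a strength of 142 and events of ARF14 and ARF36 at 97 bp.

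Distance to the nearest other list did not order the strength of ARF7-alone sites. The median percentile was 31.0 where that event lay within 200 bp, 33.9 at 1001 to 5000 bp and 36.6 at 10001 to 50000 bp. Over 50000 bp it was 21.1, from 33 sites. The 3 sites farthest from any other list were weak: 23 at 17390350 of chromosome 19 (191897 bp from an ARF36 event), 24 at 7361015 of chromosome 3 (118656 bp, ARF36) and 25 at 11452466 of chromosome 3 (99001 bp, ARF27).

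By single list, ARF7-alone sites lay nearest to the longest lists. The median distance was 10264 bp to ARF34, 12919 bp to ARF36, 16017 bp to ARF25, 19190 bp to ARF4 and 22874 bp to ARF16. It was 27610 bp to ARF10, 33587 bp to ARF14, 36423 bp to ARF27, 69124 bp to ARF29, 78704 bp to ARF39 and 340169 bp to ARF18. Within 500 bp the order differed: an ARF36 event was present at 6.18% of ARF7-alone sites (406 sites) and an ARF34 event at 4.52% (297 sites). The Wilson 95% intervals, 5.62% to 6.79% for ARF36 and 4.04% to 5.05% for ARF34, do not overlap, although the ARF34 list is the longer. An ARF25 event was that near at 4.002%, an ARF4 event at 2.98% and an ARF10 event at 2.77%.

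Allowing for list length, clade B events were denser beside ARF7-alone sites than clade A events. Density is given as events per Mb of flank per 1000 events of the list, which averaged 1.04 over the chromosome spans. Beyond 100 and up to 500 bp it was 3.63 for ARF36 (430 events), 3.63 for ARF14 (182), 3.52 for ARF39 (78), 2.94 for ARF10 (190) and 2.72 for ARF25 (272). Clade A lists gave 2.13 for ARF27 (115 events), 2.03 for ARF4 (208), 1.94 for ARF29 (55), 1.89 for ARF18 (11), 1.86 for ARF16 (166) and 1.74 for ARF34 (327). The 5 clade B values and the 6 clade A values did not overlap. They also did not overlap at 501 to 5000 bp, with 1.35 to 1.46 for clade B and 0.994 to 1.13 for clade A. Farther out, from 5000 to 50000 bp, both were near the mean over the spans, with 1.07 to 1.11 for clade B and 0.9999 to 1.06 for clade A. Since membership depends on these positions within 100 bp, the separation is a description and was not tested.

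At shared ARF7 sites that lack the list in question, the clades were less apart in the nearest band. Clade B densities up to 500 bp were 2.60 to 3.17 and clade A densities 1.87 to 3.83, the highest being the short ARF18 list with 45 events. Within clade B, ARF36, ARF14 and ARF39 had 3.63, 3.63 and 3.52 beside ARF7-alone sites, against 3.10, 3.17 and 2.60 beside shared sites without them. ARF25 went the other way, with 2.72 beside ARF7-alone sites and 3.01 beside shared sites, and ARF10 had 2.94 beside ARF7-alone sites and 2.95 beside shared sites. In clade A all 6 lists were lower beside ARF7-alone sites. The gap was smallest for ARF16, with 1.86 beside ARF7-alone sites and 1.87 beside shared sites, and widest for ARF18, with 1.89 beside ARF7-alone sites and 3.83 beside shared sites. The rule enters this comparison. The flanks were measured from the ARF7 events, but the chain of a shared site can reach farther through events of other lists. A list that the site lacks has no event within 100 bp of any event in that chain. Part of the nearest band is therefore empty by rule at shared sites and not at ARF7-alone sites. These differences between the site groups, and the part of the rule in them, were not tested.

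**Figure D2:**
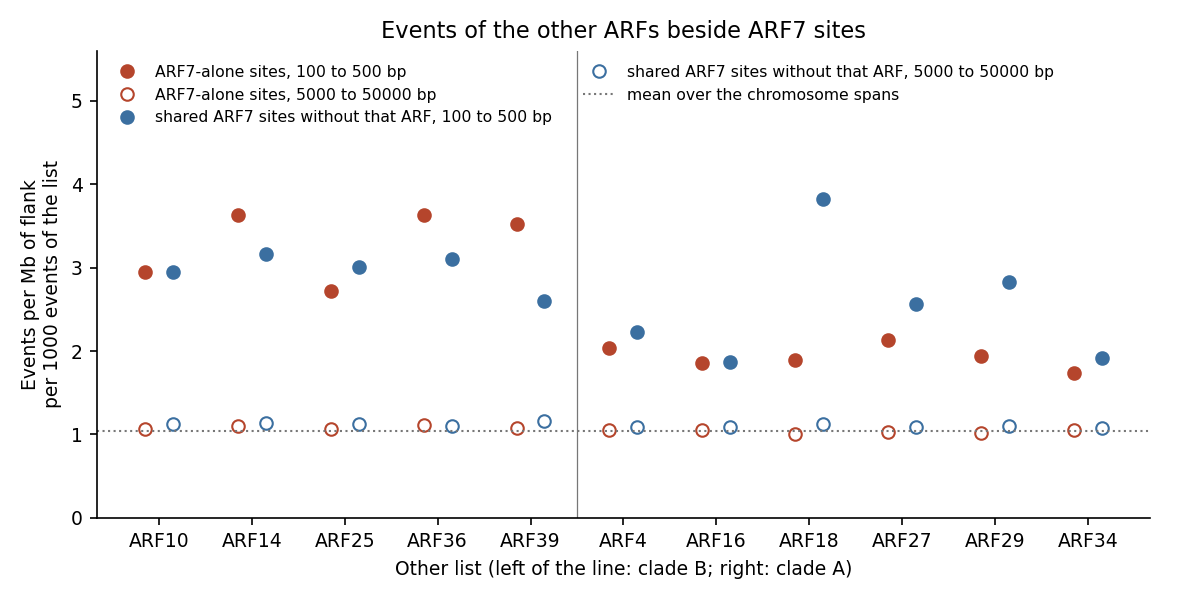
Events of each other list per Mb of flank and per 1000 events of that list, beside ARF7-alone sites and beside shared ARF7 sites that lack the list, from 100 to 500 bp (filled) and from 5000 to 50000 bp (open). Beside ARF7-alone sites the clade B lists lie at 2.72 to 3.63 and the clade A lists at 1.74 to 2.13 in the nearest band.

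ARF7-alone sites seldom held more than 1 ARF7 event. A single event was present at 6540 of them, 2 events at 30 and 3 events at 1, against 13296, 444 and 5 of the shared sites. The site of 3 events spanned 29628636 to 29628748 of chromosome 9, with a highest strength of 85.4, and its nearest other list was ARF25 at 4045 bp. Of those with 2 events, the strongest had 142.2 on chromosome 5 (29515733 to 29515772) and 135.7 on chromosome 9 (43578667 to 43578741). Chromosome 2 held one of 90.9 (25432615 to 25432684), and chromosome 9 another of 73.5 (11353717 to 11353769). A longer chain has more chance to take in another list, so the rule itself works against sites of several events.

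Another ARF7 event within 500 bp was present at 429 ARF7-alone sites (6.53%, Wilson 95% interval 5.96% to 7.15%) and at 1107 shared sites (8.05%, 7.61% to 8.52%). The share was lower at ARF7-alone sites on 18 of 20 chromosomes. Counting only ARF7 events of another site turned the direction: 6.07% at ARF7-alone sites (5.52% to 6.68%) and 4.89% at shared sites (4.54% to 5.26%). By that count the share was lower at ARF7-alone sites on 3 of 20 chromosomes. Averaged over the 10 strength deciles, the difference for all ARF7 events was -0.575 percentage points, with 7 of 10 deciles lower at ARF7-alone sites. For ARF7 events of another site it was 1.43 points, with 9 of 10 deciles higher. The direction thus depended on whether close pairs that the chaining joins into 1 site were counted.

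An ARF7-alone site more often had an ARF7-alone site as its close neighbour than a shared site did. Where consecutive ARF7 sites lay up to 500 bp apart, the neighbour of an ARF7-alone site was itself ARF7-alone in 44.1% (Wilson 95% interval 39.4% to 49.0%). For a shared site the neighbour was ARF7-alone in 33.5% (30.1% to 37.2%). At 501 to 5000 bp these were 36.7% and 31.8%, and from 5000 to 50000 bp 32.6% and 30.8%, close to the 32.3% over all ARF7 sites. Each pair enters from both ends, so the counts behind these intervals are not independent.

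ARF7-alone sites were spread over all 20 chromosomes and lay more often in the middle of them than shared ARF7 sites did. The middle was the stretch from 25% to 75% of the span between the outermost events of a chromosome. It held 55.3% of the ARF7-alone sites (3637 of 6571, Wilson 95% interval 54.1% to 56.5%) and 46.6% of the shared ARF7 sites (45.8% to 47.5%). The share was higher at ARF7-alone sites on 19 of 20 chromosomes. The exception was chromosome 13, with 39.8% of its ARF7-alone sites and 48.9% of its shared sites in the middle. At matched strength the middle share remained higher at ARF7-alone sites in 10 of 10 deciles, by 7.69 percentage points on average.

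ARF7-alone sites were denser in the middle slices of the chromosomes than at the ends, whereas shared ARF7 sites and the events of the other lists were densest at the ends. Each span was cut into 10 slices of equal length, numbered from its start. Slices 1 and 10 had 5.996 and 5.98 ARF7-alone sites per Mb, against 8.61 in slice 6. Shared ARF7 sites had 16.0 and 16.6 per Mb in the outer slices and 13.7 in slice 6. Events of the other 11 lists had 193.5 and 195.8 per Mb in the outer slices and 147.8 in slice 6. The stretch within 100 bp of an event of another list, where no ARF7-alone site can lie, took up 1.32% to 1.71% of each slice. That stretch does not measure the effect of the rule, since 13745 of the 20316 ARF7 sites were shared all the same. Where other lists have fewer events, the rule leaves more ARF7 events alone. Its part in the differences between slices, and in the middle share, was not tested.

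**Figure D3:**
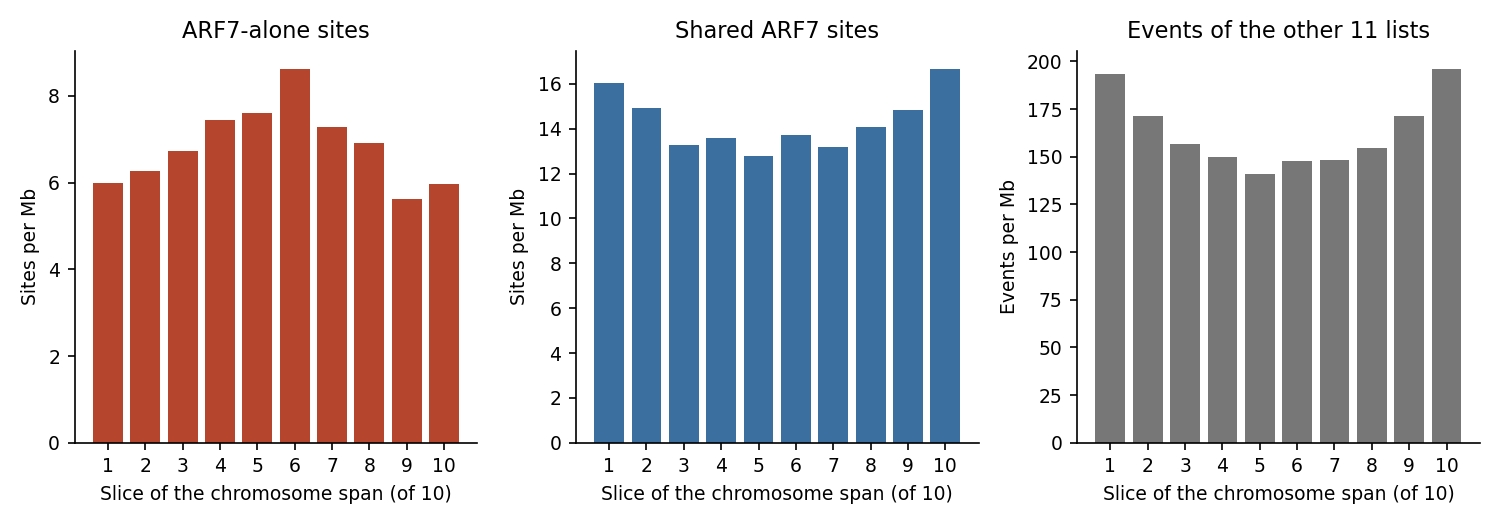
Sites or events per Mb in each of 10 equal slices of the chromosome spans, summed over 20 chromosomes. ARF7-alone sites peak at 8.61 per Mb in slice 6, whereas shared ARF7 sites and the events of the other 11 lists are densest in the outer slices.

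ARF7-alone sites made up more of the ARF7 sites where other lists were sparse. In 1 Mb bins with 23 to 133 events of the other lists, 41.3% of the ARF7 sites were ARF7-alone (Wilson 95% interval 39.8% to 42.7%). In bins with 205 to 325 such events the share was 25.7% (24.4% to 27.1%). The rule itself ties these quantities, since fewer other events leave more ARF7 events alone, and its part in the difference was not tested.

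The ARF7-alone share also varied between chromosomes. It was lowest on chromosome 13 (27.8%, Wilson 95% interval 25.1% to 30.7%) and highest on chromosome 1 (36.9%, 34.2% to 39.7%), and these intervals do not overlap. These chromosomes were picked as the extremes of 20, so the gap between them is a description and was not tested. The intervals of 16 chromosomes held the overall share of 32.3%. Those of chromosomes 1 and 20 lay above it and those of chromosomes 2 and 13 below. For chromosomes 20 and 2 the margin was very small, with a lower limit of 32.35% and an upper limit of 32.31% against 32.34% overall. Per Mb of span, ARF7-alone sites numbered 5.80 on chromosome 3 at the lowest and 7.66 on chromosome 7 at the highest.

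**Figure D4:**
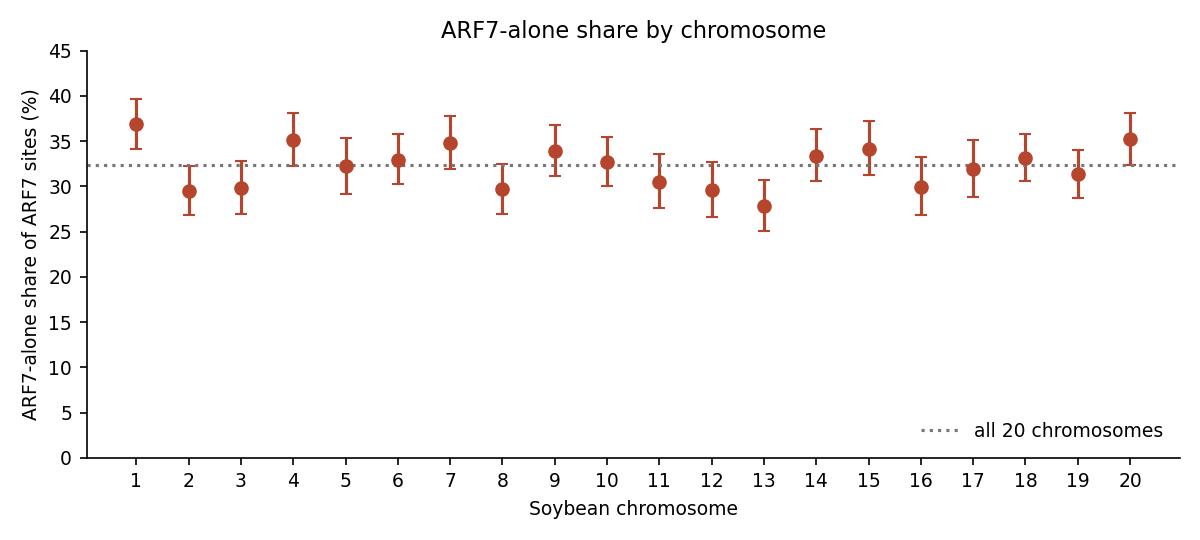
ARF7-alone share of ARF7 sites on each of the 20 soybean chromosomes, in percent, with Wilson 95% intervals. The dotted line marks 32.3% for all chromosomes, and the points run from 27.8% on chromosome 13 to 36.9% on chromosome 1.

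Set beside the sites of other single ARFs, low strength was common to the sets compared, and the share in the middle of the chromosomes differed between them. ARF34 had 13187 sites alone (38.3% of its sites), ARF4 4643 (24.3%) and ARF36 4466 (20.3%). The median percentile within the own list was 33.9 at ARF7-alone sites, 34.0 at ARF34-alone sites, 29.4 at ARF4-alone sites and 29.4 at ARF36-alone sites. The middle of the chromosomes held 55.3% of the ARF7-alone sites and 54.1% of the ARF36-alone sites (52.7% to 55.6%), intervals that overlap. It held 46.1% of the ARF34-alone sites (45.3% to 47.0%) and 43.1% of the ARF4-alone sites (41.6% to 44.5%). Among the smaller sets of clade B it was 60.1% for 178 ARF14-alone sites (52.8% to 67.0%) and 53.1% for 49 ARF39-alone sites (39.4% to 66.3%), both overlapping ARF7. It was 44.4% for 770 ARF10-alone sites (40.9% to 47.9%) and 42.4% for 3043 ARF25-alone sites (40.7% to 44.2%), both below ARF7. Over all events of a list, the middle share ran from 39.8% for ARF29 to 49.5% for ARF7, with 48.5% for ARF36. The ARF7 list as a whole thus had the highest middle share of the 12, and the ARF7-alone sites had a higher one still.

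Neighbours of the own list also differed between these groups. Another event of the own list within 500 bp was present at 6.53% of ARF7-alone sites, 8.12% of ARF34-alone sites, 5.08% of ARF4-alone sites and 4.21% of ARF36-alone sites. The highest strength at sites alone was 365.6 for ARF7, 254.5 for ARF34, 113.1 for ARF4 and 240.5 for ARF36, on scales that are not comparable between lists. Longer lists place own events closer by chance, which these shares do not allow for.

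The number of ARF7-alone sites depended on which events were used. Keeping, in every list, the events whose −log10 q reached the median of that list gave 3493, and their median distance to another list was 9369 bp. Filtering the ARF7 list alone and keeping the other lists whole left 1915, or 18.8% of the ARF7 sites.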

How the data were processed

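DAP-seq peak lists of 12 maize ARFs on soybean leaf DNA were used, 1 library each, grouped by sample title. Trimmomatic 0.36 and Bowtie2 are named per the submitters' processing notes. GEM, an event caller, is named in the titles of the deposited lists, and the sources used here name neither a genome build nor its settings and filters. The deposited windows of 201 bp hold the event at offset 100. The deposited signal value is the authors' strength, with no stated scaling, and served to rank and describe events within a list and, at each event, to set its p-value against a binomial one. The −log10 p and −log10 q values deposited with each event are capped at 999, which 4 ARF7 events reached. Events with −log10 p of 290 or more were not set against the binomial value.

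Positions were written 1-based and chained within 100 bp. A percentile is the mid-rank in the list. Wilson 95% intervals cover counting error only. No test was made, because each ARF has 1 library and membership comes from the same lists. The members, lists and rule for named sites were chosen with earlier results of these data known. That rule took the 10 strongest ARF7-alone sites, the 5 with the most ARF7 events, the 3 farthest from another list, and the strongest 3 on each side of the threshold, of which the strongest is given for each side. Chaining and distances were tested on simulated data. Alternatives were merging within 50 or 200 bp, stricter −log10 q, leaving out each other ARF, other measures of strength, and single events in place of sites. Neighbours in other sites and matched strength were added after seeing the data. The planned description of sequence was not run, since no genome of the files' build was used here. The code ran in Python 3.11.15 with scipy 1.17.1, pandas 2.3.3, numpy 2.4.6 and matplotlib 3.10.9.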

Additional observations from a re-analysis of the deposited data

How the results depend on the processing

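No paired analysis was possible because each ARF has 1 library and no test was made. The number of ARF7-alone sites (6571) was 3493 when each list kept the events whose −log10 q reached its median, 1915 with that filter on ARF7 alone, and 6571 to 8482 (without ARF36) when 1 other ARF was left out. Their share of ARF7 sites (32.3%) was 36.1% with merging within 50 bp, 30.6% within 200 bp, 34.2% with the filter on every list, 18.8% with it on ARF7 alone, and 32.3% to 41.7% with 1 ARF left out. The difference in median percentile, ARF7-alone minus shared (-25.5), was -27.0 within 50 bp, -12.3 and -9.87 under the filters, which remove the weaker part of the range, -28.3 by rank of −log10 q, and -25.8 to -24.0 with 1 ARF left out. The median distance to another list (4340 bp) was 3356 bp within 50 bp, 4807.5 bp within 200 bp, 9369 bp with fewer events in every list, and 4340 to 5327 bp with 1 ARF left out. The difference in middle share (8.72 points) was 8.08 to 10.6 points with 1 ARF left out. The difference in sites with an ARF7 event within 500 bp (-1.53 points) was -2.69 points within 200 bp and -2.69 points with the filter on every list. It was -0.575 points over strength deciles, -1.91 to -1.45 points with 1 ARF left out, and reversed to 1.18 points with neighbours of another site only. Where no reason is given, the cause was not tested. Since depth is unknown, a missing event of another ARF may be one under its list's threshold.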

Other observations

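Of 970 bins of 1 Mb, 961 held an ARF7-alone site, and none held more than 17, a number reached on chromosomes 3, 4 and 8. In bins with at least 10 ARF7 sites the ARF7-alone share ran from 0% to 71.4%, with a median of 31.6%. With so few sites in a bin, counting error alone spreads these shares widely, and no bin was set apart.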
